A study of Sylvia borin with 20 samples.

Results

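The genes of iron uptake, storage and sensing were followed by name, from a list of 10, through the whole blood transcriptome of migrating garden warblers (Sylvia borin). The listed symbols were TFRC, STEAP3, SLC11A2, SLC25A37, FTH1, NCOA4, PCBP1, SLC40A1, IREB2 and ACO1, out of 20898 gene symbols in the tables. Of these, 8 had a line in every table, and SLC11A2 and PCBP1 were not analysed here. Wild birds were caught at a spring stopover, kept in individual cages with food and water and bled on day 1, when they were lean, and again on day 5, when they were fat. Age and sex are not given in the sources used here. No agent or genotype separated the conditions, so refuelling, days in the cage and repeated bleeding cannot be told apart. This gave 10 lean and 10 fat libraries, with the replicate number in the labels naming the bird. The values were FPKM (fragments per kilobase of gene and per number of mapped fragments) after scaling between libraries by median-of-ratio factors, called normalized FPKM below, and 7 of the 8 genes passed the filter of a mean deposited FPKM of at least 0.1, as 7800 of all symbols did.

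In animal cells, iron bound to transferrin enters through the transferrin receptor, is reduced in the endosome and then reaches the mitochondrion, where heme is made, or the ferritin shell, where it is stored. The iron regulatory proteins, known best from mammals, sense cytosolic iron and bind iron-responsive elements (IREs) in mRNAs, which blocks the translation of ferritin and ferroportin and stabilizes the receptor mRNA. Red cells of birds keep their nucleus, and hemoglobin makes the red cell line the main consumer of iron in the blood.

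The libraries held between 0.882 and 4.71 gigabases of aligned reads, a depth taken from coverage over FPKM, with a median of 1.66 in lean and 2.34 in fat libraries. Red cell RNA was abundant. The α-globin gene HBAA had 141249 ± 22155 normalized FPKM on day 1 and 219015 ± 44012 on day 5 (SD, n = 10). These values were higher in the fat library of all 10 birds, as for 2.15% of all genes. HBAA did not pass the test (log2 fold change, fat over lean, 0.62, standard error 0.23, limma adjusted p = 0.110). With bird as a block the standard error was 0.33 and the limma adjusted p was 0.221. Both standard errors also draw on the trend of variance with level over all genes, so they are not the spread of HBAA alone. Missing the threshold therefore does not show that HBAA was unchanged. The log2 fold change was 0.31 for deposited FPKM and 0.22 for deposited TPM. Quantile normalization gives the same value to a gene that holds the same rank in every library, so its 0.00 for HBAA cannot show a change. The paper, which used DESeq2, reported HBAA as differentially expressed. The other 7 erythroid markers in the tables, 11 having been listed, summed to 1658 to 2378 normalized FPKM on day 1 and 1564 to 2850 on day 5, and ALAS2, KLF1, EPOR and NFE2 were not analysed here. With HBAA, 7 of 8 erythroid markers were higher in fat birds and 1 lower. Of these 8, 0 were called, and 1 was called higher with bird as a block. Their median log2 fold change was 0.24, and −0.07 for deposited FPKM. Markers of the other blood cells were low. The 7 thrombocyte markers summed to 49.2 to 153 on day 1 and 55.5 to 80.1 on day 5, with 3 of 6 fitted called lower in fat birds and 5 with bird as a block. The 8 monocyte and macrophage markers summed to 1.18 to 11.2 on day 1 and 0.217 to 3.20 on day 5, with MARCO, CD14 and C1QB listed at 0 in all libraries, and 0 of 3 fitted were called, with 2 called lower under the block. The 3 heterophil markers summed to 6.35 to 42.6 on day 1 and 1.65 to 10.5 on day 5, with LYG2 at 0 throughout and 1 of the 2 fitted called lower, both under the block. The 6 T cell markers summed to 0.0645 to 1.46 on day 1 and 0 to 1.09 on day 5 and the 6 B cell markers to 0.659 to 4.19 and 0.0725 to 2.24, with CD3E and BLK at 0 in all libraries, and the block called 1 B cell marker lower. Over all genes fitted, 1.49% were called higher and 3.27% lower, and with bird as a block 5.18% higher and 8.08% lower. The part of these cell types in the results below was not tested. In bulk blood, fewer cells of a type and less RNA per cell cannot be told apart.

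Ferritin mRNA stood far above the rest of the iron genes. By mean normalized FPKM over the 20 libraries, which is scaled for gene length, FTH1 came first with 19725 ± 5629.9 (SD) and ranked 3 among all symbols. TFRC followed with 140.0 ± 57.2, NCOA4 with 136 ± 32.1, SLC25A37 with 59.7 ± 14.8, IREB2 with 46.2 ± 10.2, SLC40A1 with 26.7 ± 8.86 and STEAP3 with 0.836 ± 0.559. FTH1 was 141 times as high as TFRC. In normalized FPKM TFRC and NCOA4 were not separated, as TFRC was the higher of the pair in 12 of 20 libraries. SLC25A37 exceeded IREB2 in 17 of 20 libraries, and every other step in this order held in all 20. The deposited coverage, the mean depth per base, gave another order for some of these genes, with IREB2 above SLC25A37 in all 20 libraries and SLC40A1 above SLC25A37 in 19. By coverage TFRC was above NCOA4 in 18 of 20 libraries, and IREB2 above SLC40A1 in 15. The cause of these differences between FPKM and coverage was not tested. ACO1 came last, at or near 0.

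**Figure D1:**
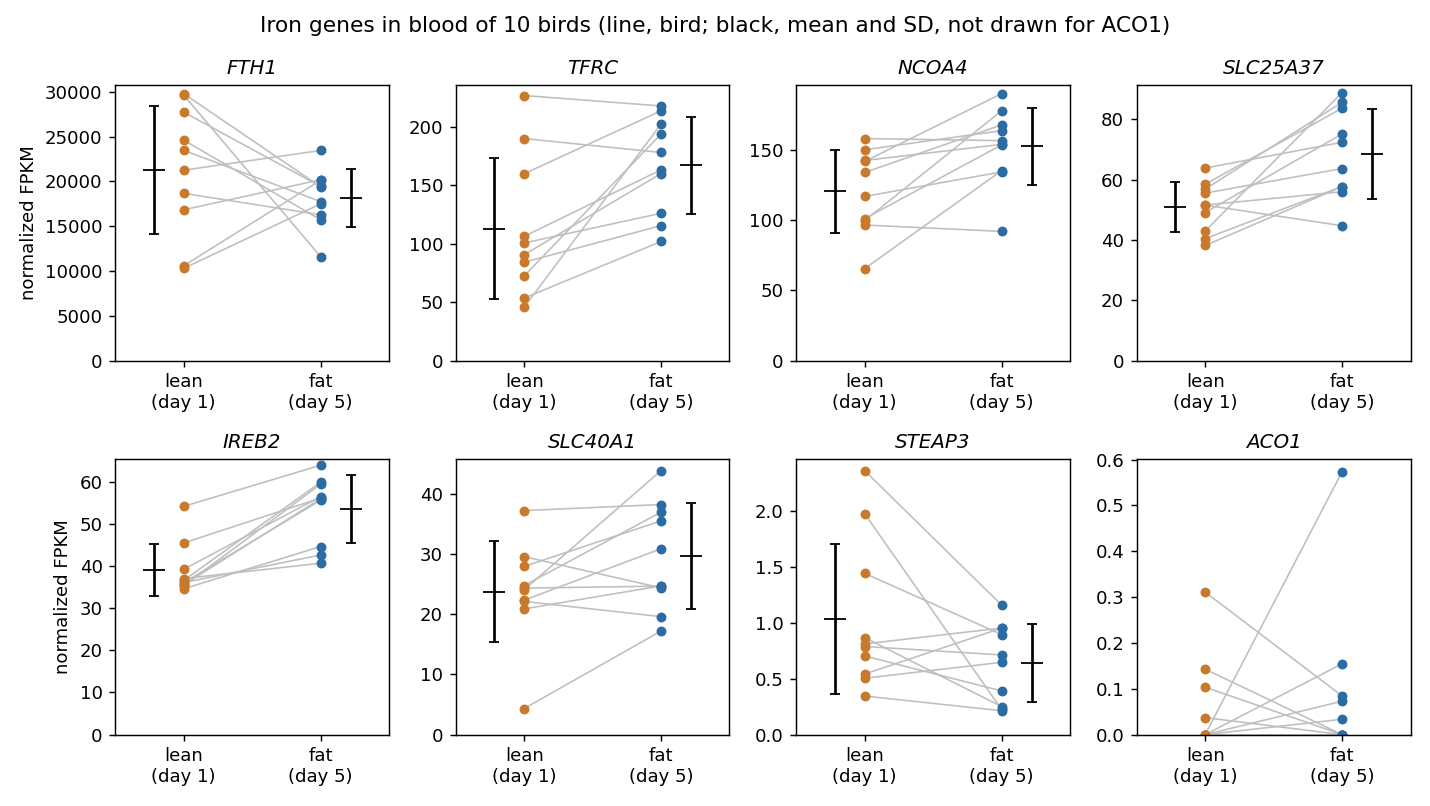
Normalized FPKM (y axis, linear, from 0) of 8 iron genes in lean (day 1, orange) and fat (day 5, blue) blood of 10 birds, with a grey line joining the libraries of a bird and black marks for the mean and SD (not drawn for ACO1). IREB2 rises along all 10 lines, from 34.6 to 54.1 in lean to 40.6 to 63.9 in fat libraries, while the FTH1 lines cross.

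In the comparison of conditions, 1 of the 7 fitted iron genes was called, IREB2, which rose in fat birds. Over all genes 4.76% were called at an adjusted p under 0.05, 371 of 7800, with 1.49% higher and 3.27% lower in fat birds (limma on log2(normalized FPKM + 0.1), Benjamini-Hochberg adjustment over all genes). The added constant makes fold changes of low genes too small. With bird as a block, so that each bird serves as its own control, 3 of the 7 were called, IREB2, TFRC and SLC25A37, all higher in fat birds, where 13.3% of all genes were called, 5.18% higher and 8.08% lower. Of the 7 genes, 5 had a higher mean of log2 values in fat birds and FTH1 and STEAP3 a lower one. The median log2 fold change of the 7 was 0.41, beside −0.10 over all genes fitted, of which 3352 of 7800 were higher. The median over all genes depended on the filter. It was 0.03 over the 4605 genes left when the floor was raised to 1, which 6 of the 7 iron genes passed. For the 8 erythroid markers the median was 0.24, with 7 higher in fat birds.

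The size of these differences moved with the scaling between libraries. The median log2 fold change of all genes was −0.10 after median-of-ratio scaling, 0.05 when libraries were quantile normalized, −0.35 for deposited FPKM and −0.43 for deposited TPM. With FPKM as deposited none of the 7 iron genes was called, although 11.3% of all genes were. An unadjusted limma p under 0.05 was found for 2 of the 7, FTH1 and STEAP3, both lower in fat birds. Over all genes 2113 of 7800 had one. The share of calls that were lower in fat birds was 68.7% after median-of-ratio scaling (255 of 371), 97.1% with FPKM as deposited (856 of 882) and 98.6% with TPM as deposited (1225 of 1243). Relative to the median of all genes, 5 of the 7 lay above it and FTH1 and STEAP3 below it under each of these scalings. Median-of-ratio values, deposited FPKM and deposited TPM differ only by a factor for each library. Taking off the median removes that factor, apart from the added constant, so their agreement was fixed in advance. Of these scalings, quantile normalization alone is not bound in this way. TFRC lay 0.80 above that median after median-of-ratio scaling, 0.73 with FPKM as deposited, 0.72 with TPM and 0.50 with quantile normalization. For deposited FPKM the log2 fold change was 0.10 for SLC40A1, 0.05 for NCOA4 and −0.47 for FTH1, against 0.41, 0.36 and −0.16 after median-of-ratio scaling. IREB2 lay 0.55, 0.49, 0.48 and 0.27 above the median of all genes in the order of settings given for TFRC.

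**Figure D2:**
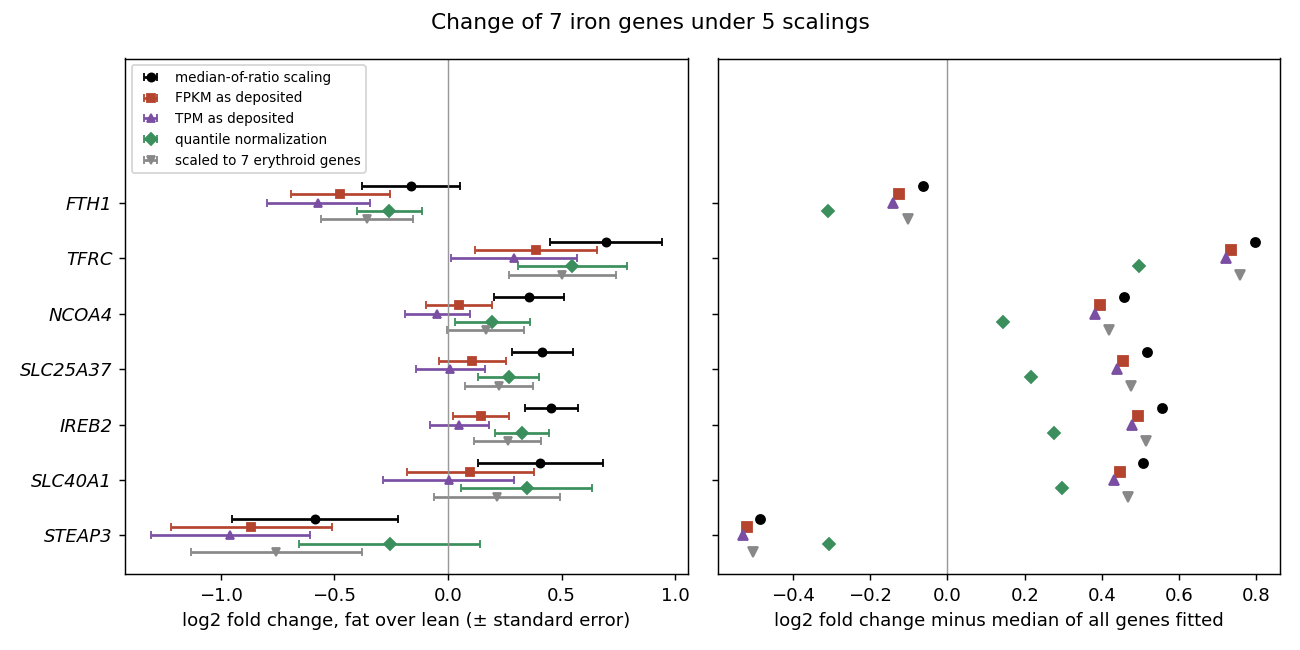
Left, log2 fold change (fat over lean, x axis, bars are standard errors) of 7 iron genes under 5 scalings. Right, the same values minus the median of all genes fitted, which takes off any factor common to a library. There only quantile normalization can differ by more than the added constant brings. In the left panel NCOA4 lies at 0.36 after median-of-ratio scaling and at −0.05 with TPM as deposited, and in the right panel its points lie between 0.14 and 0.46.

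IREB2 encodes iron regulatory protein 2, which binds IREs when iron is low and is degraded when iron is plentiful. It lay between 34.6 and 54.1 normalized FPKM in lean libraries (median 36.3) and between 40.6 and 63.9 in fat libraries (median 56.0). The conditions overlapped, but 7 fat libraries lay above all lean libraries and 8 lean libraries lay below all fat libraries, with birds 7 and 8 the highest when lean. After median-of-ratio scaling it was higher in the fat library of all 10 birds, as 2.15% of all genes were. The differences lay between 0.14 and 0.75 on the log2 scale. With FPKM as deposited IREB2 was lower when fat in birds 7, 8 and 10 and higher in the others. The mean normalized FPKM rose from 39.0 ± 6.18 to 53.5 ± 7.97 (SD, n = 10). The log2 fold change was 0.45 (standard error 0.12, 95% interval 0.22 to 0.69, limma adjusted p = 0.0319). The call did not hold with FPKM as deposited (0.15, adjusted p = 0.475), with TPM as deposited (0.05, adjusted p = 0.826) or with quantile normalization (0.33, adjusted p = 0.146), nor after scaling to the 7 erythroid markers other than HBAA, a setting chosen after the data were seen (0.26, adjusted p = 0.30). In the main fit, which has no bird term, it was also lost without bird 1 (adjusted p = 0.0731), bird 2 (0.0592), bird 4 (0.054), bird 6 (0.0775) or bird 10 (0.0583). The log2 fold changes lay between 0.42 and 0.49 over all birds left out. With bird as a block the limma adjusted p was 0.00966, but 0.364 for deposited FPKM with the block. Birds were not left out singly from the fit with the block. In the 8 birds with matching codes its adjusted p for IREB2 was 0.0278.

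ACO1 encodes cytosolic aconitase, which turns into iron regulatory protein 1 when it loses its iron-sulfur cluster. It was listed at 0 in 6 lean and 5 fat libraries. The lean libraries above 0 were those of bird 2 with 0.311 normalized FPKM, bird 4 with 0.143, bird 6 with 0.103 and bird 3 with 0.0370. The fat libraries above 0 were those of bird 8 with 0.573, bird 1 with 0.154, bird 2 with 0.0845, bird 7 with 0.0728 and bird 9 with 0.0335. Only bird 2 had a value above 0 on both days, and the mean over the libraries stayed under the filter. Without the filter the log2 fold change was 0.14 (standard error 0.35, adjusted p = 0.849 from limma over 12705 genes). A value of 0 is given only as listed at 0. Among genes at a higher level, 144 symbols with a median above 2 normalized FPKM had a 0 in some library. IREB2 exceeded ACO1 in all 20 libraries, and the size of their ratio depends on the constant added to the zeros.

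TFRC is the transferrin receptor of developing red cells, and its mRNA is stabilized by the iron regulatory proteins in mammals. Lean libraries held 45.7 to 226 normalized FPKM (median 95.6), and fat libraries held 102 to 218 (median 170.4). The lean libraries of birds 10, 8 and 6 were the lowest, at 45.7, 53.6 and 72.5, and those of birds 3 and 4 were the highest, at 226 and 189.7. The ranges overlapped, with 6 lean libraries below all fat libraries and 1 above all of them. The mean was 113 ± 59.8 when lean and 167 ± 41.4 when fat (SD, n = 10), a log2 fold change of 0.70 (standard error 0.25, 95% interval 0.19 to 1.20) that did not pass over all genes (limma adjusted p = 0.0939). With bird as a block the adjusted p was 0.0273, but 0.103 in the 8 birds with matching codes (0.49), 0.0591 with depth as a covariate beside the block and 0.171 for deposited FPKM with the block. The log2 fold change fell to 0.39 for deposited FPKM and 0.29 for TPM, and was also 0.29 in the fit with a covariate of unique mapping (18 libraries, standard error 0.33). By normalized FPKM TFRC was higher in the fat library of 8 of 10 birds, with the largest difference in bird 10 (2.14 on the log2 scale). Values were slightly lower in birds 3 and 4 (−0.06 and −0.09). In deposited FPKM bird 1 was lower when fat as well.

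STEAP3 is the endosomal reductase that converts the iron released from transferrin so that it can leave the endosome. Its level was low, 0.345 to 2.36 normalized FPKM on day 1 (median 0.799) and 0.213 to 1.16 on day 5 (median 0.679), and the deposited coverage was between 0.300 and 4.61 reads per base. The lean libraries of birds 8, 5 and 10 were above all fat libraries, and the fat libraries of birds 2, 5 and 3 were below all lean libraries. The log2 fold change was −0.59 (standard error 0.36, 95% interval −1.34 to 0.17, limma adjusted p = 0.347), lower in 7 of 10 birds. It was −0.87 for deposited FPKM (adjusted p = 0.112), −0.96 for deposited TPM (adjusted p = 0.0640), −0.26 with quantile normalization and −0.28 with a pseudocount of 1. Bird 5 had the largest difference, from 1.97 to 0.225. In deposited FPKM bird 9, higher when fat by normalized FPKM, was lower.

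SLC25A37 encodes mitoferrin 1, the carrier that brings iron into the mitochondria of developing red cells. It lay between 38.2 and 63.9 normalized FPKM in lean libraries (median 51.6) and between 44.8 and 88.9 in fat libraries (median 68.1). The 5 fat libraries of birds 4, 7, 8, 6 and 5 were above all lean libraries. The mean was 50.9 ± 8.30 when lean and 68.6 ± 14.8 when fat (SD, n = 10), a log2 fold change of 0.42 (standard error 0.14, 95% interval 0.14 to 0.70) with a limma adjusted p of 0.0727. With bird as a block the adjusted p was 0.031, but 0.122 in the 8 birds with matching codes (0.38). Bird 2, from 51.6 to 44.8, was the only bird with a lower fat value by normalized FPKM. In deposited FPKM birds 8 and 9 were lower when fat as well. With FPKM as deposited the log2 fold change was 0.11 and with TPM as deposited 0.01.

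Storage was described by ferritin and its autophagy receptor. FTH1, the ferritin heavy chain that oxidizes iron and stores it, had 10319.8 to 29795 normalized FPKM on day 1 (median 22369.6) and 11618 to 23461 on day 5 (median 18584). The fat range sat inside the lean range. The lean libraries of birds 1, 2, 5, 8 and 3 were above all fat libraries and those of birds 9 and 7 below all of them. The log2 fold change of −0.16 (standard error 0.22, 95% interval −0.61 to 0.28, limma adjusted p = 0.696) averaged over birds that moved in opposite directions, 6 lower and 4 higher when fat. Bird 2 had the largest fall, from 29635.5 to 11618, and bird 7 the largest increase, from 10600.2 to 20136. The share of summed TPM that FTH1 took was 2.70% on day 1 and 1.72% on day 5, and with TPM as deposited its log2 fold change was −0.57 (adjusted p = 0.0847).

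The spread of FTH1 differed between the days. The SD of its log2 values was 0.56 in lean and 0.28 in fat libraries, and TFRC with 0.75 and 0.39 and SLC40A1 with 0.84 and 0.44 were also more spread when lean, with ratios of 2.04 for FTH1, 1.95 for TFRC and 1.89 for SLC40A1. Over all 7800 genes the median of this ratio (lean over fat) was 1.13, and 8.64% of genes had a higher ratio than FTH1, 9.82% than TFRC and 10.8% than SLC40A1. IREB2 (0.20 and 0.23) and SLC25A37 (0.24 and 0.32) had the smaller SD when lean. These SDs are a description and their difference was not tested. The lean SD of SLC40A1 includes the low library of bird 8 described below.

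NCOA4 is the receptor that carries ferritin to the lysosome and releases its iron. It lay between 65.5 and 158 normalized FPKM in lean libraries (median 125) and between 91.9 and 189.7 in fat libraries (median 155). The fat libraries of birds 9, 1, 6 and 8 were above all lean libraries, and bird 2 was the lowest when lean. The log2 fold change was 0.36 (standard error 0.15, 95% interval 0.04 to 0.68, limma adjusted p = 0.172). By normalized FPKM it was higher in the fat library of 8 of 10 birds, by up to 1.04 in bird 2, with differences of −0.07 and −0.01 in birds 3 and 4. In deposited FPKM birds 8, 9 and 10 were lower when fat as well. With TPM as deposited the direction of the mean change turned, to −0.05.

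SLC40A1 encodes ferroportin, the exporter of cellular iron. It lay between 4.32 and 37.2 normalized FPKM in lean libraries (median 24.2) and between 17.2 and 43.8 in fat libraries (median 27.8). The lean library of bird 8 stood alone at 4.32, with the next lowest at 20.9, and the fat library of the same bird was the lowest of the fat libraries. That lean library also listed 42 of the 144 symbols named above at 0, more than any other library, the next having 31. The log2 fold change was 0.41 (standard error 0.28, 95% interval −0.16 to 0.98, limma adjusted p = 0.393), higher in 8 of 10 birds. Without bird 8 it was 0.23 (adjusted p = 0.418), and without its lean library alone, a setting chosen after the data were seen, it was 0.15 (adjusted p = 0.641). In deposited FPKM birds 7 and 9, higher when fat by normalized FPKM, were lower.

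**Figure D3:**
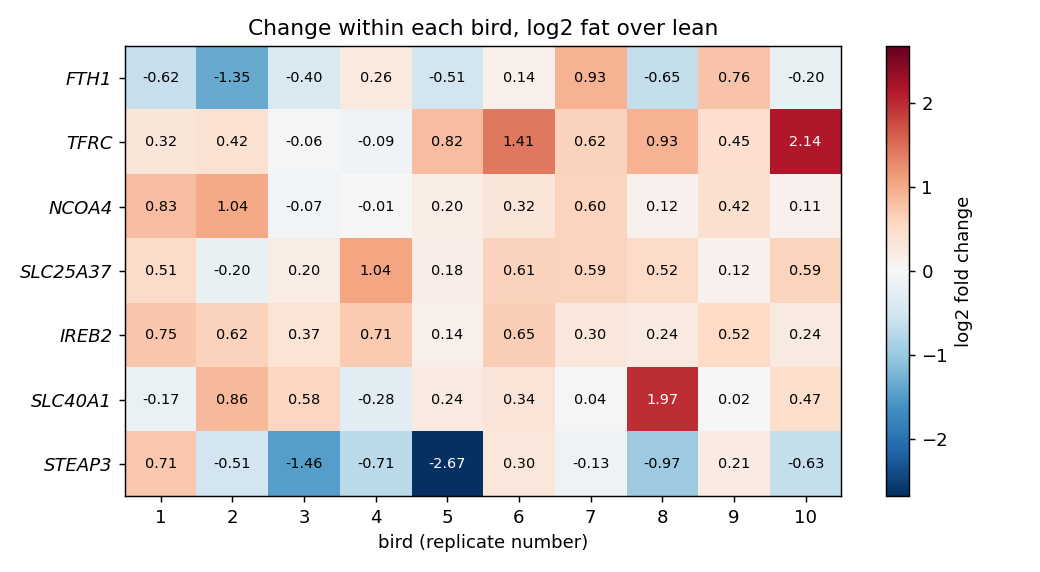
Difference between the fat and the lean library of 7 iron genes (rows) in each of 10 birds (columns). Colour and number give the log2 fold change of normalized FPKM. The IREB2 row is above 0 in all 10 birds, birds 6 and 9 are above 0 in all 7 genes, and FTH1 is below 0 in 6 birds.

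Within birds the genes did not move as one block. By normalized FPKM all 7 genes were higher in the fat library in birds 6 and 9, and in birds 3 and 4 only 3 of 7 were. In deposited FPKM all 7 were still higher in bird 6. In bird 9 SLC25A37, SLC40A1, NCOA4 and STEAP3 were then lower when fat. By normalized FPKM TFRC and NCOA4 moved in the same direction in all 10 birds. Both rose in 8, and both fell by less than 0.1 in birds 3 and 4. With FPKM as deposited they moved in opposite directions in birds 1, 8, 9 and 10 and together in the others. Over the 20 libraries, with the mean of each condition taken off, their log2 values had a Pearson r of −0.52. In normalized FPKM IREB2 rose in all 10 birds. A direction shared with it therefore only restates in how many birds the other gene rose, 9 of 10 for SLC25A37. FTH1 shared its direction with TFRC, NCOA4, SLC40A1 and IREB2 in 4 of 10 birds each. STEAP3 shared its direction with IREB2 and SLC40A1 in 3 birds.

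Ratios between genes within a library hardly carry the scaling between libraries, unless a gene is at or near 0. The ratio of IREB2 to ACO1 is such a case. Where ACO1 is 0 its term is only the added constant, and the ratio keeps the scaling of IREB2. In all, 4 ratios were compared by an exact sign-flip test on differences within birds (two-sided, smallest possible p 0.00195), with Benjamini-Hochberg adjustment over the 4. The ratio of FTH1 to TFRC, storage against uptake, had a geometric mean of 200.1 in lean and 110.3 in fat libraries. On the log2 scale it was 7.64 ± 0.90 when lean and 6.78 ± 0.49 when fat (SD, n = 10), a mean difference within birds of −0.86 ± 0.97 that did not pass after adjustment (exact sign-flip p = 0.0273, adjusted 0.109). It was lower in the fat library of 7 of 10 birds and higher in birds 4, 7 and 9, and the unadjusted p lay between 0.0195 and 0.0547 with each bird left out, with 0.0508 without bird 1 and 0.0547 without bird 2, 5, 6, 8 or 10. The highest lean ratios were those of birds 8 and 10, at 459 and 408. In fat libraries the ratio ran from 54.4 to 154.

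The ratio of FTH1 to NCOA4 was 7.42 ± 0.80 on the log2 scale in lean and 6.90 ± 0.36 in fat libraries, a difference of −0.52 ± 0.87 (SD, n = 10; exact sign-flip p = 0.0781, adjusted 0.156). The ratio of SLC40A1 to TFRC, export against uptake, spanned −3.60 to −1.03 on day 1 and −2.86 to −2.09 on day 5, a difference of −0.29 ± 0.81 (exact sign-flip p = 0.279, adjusted 0.372). The ratio of IREB2 to ACO1 differed by 0.32 ± 1.36 (exact sign-flip p = 0.502, adjusted 0.502), with ACO1 at 0 in 11 of 20 libraries.

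**Figure D4:**
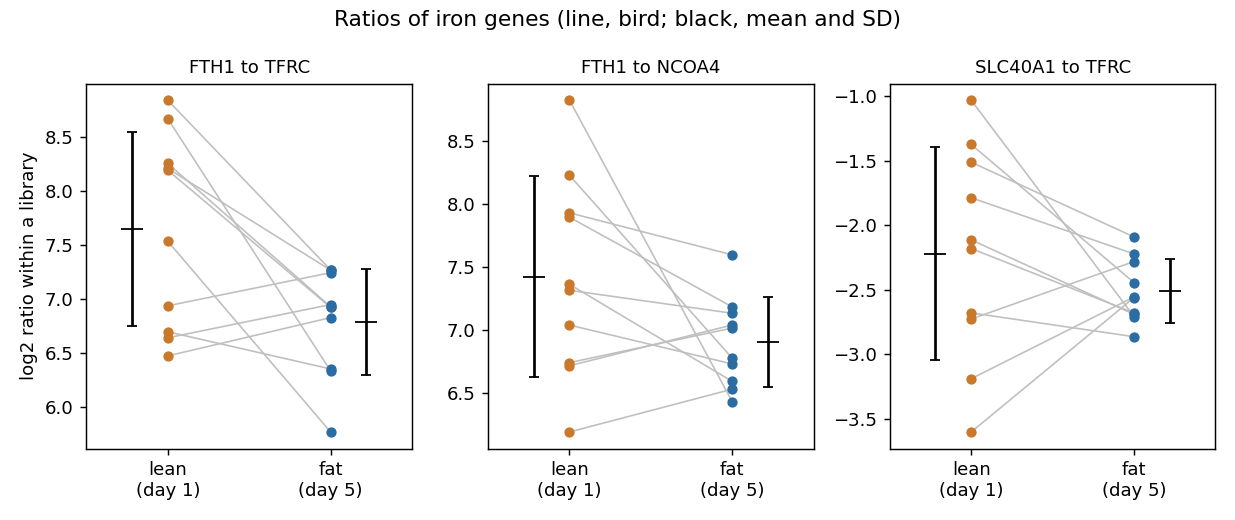
Log2 ratio (y axis) of FTH1 to TFRC, FTH1 to NCOA4 and SLC40A1 to TFRC within each library, lean (orange) and fat (blue), with a grey line for each of 10 birds and black marks for the mean and SD. The SLC40A1 to TFRC ratio spans −3.60 to −1.03 when lean and −2.86 to −2.09 when fat.

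The other genes of the iron pathways were taken from 5 lists. Of 13 genes of uptake and trafficking, 7 were fitted and none was called, 2 with a higher and 5 with a lower value in fat birds (median log2 fold change −0.17). The 3 with the smallest p were EXOC6, a subunit of the exocyst that takes part in recycling the transferrin receptor in mice, TF, transferrin itself, and MCOLN1, an iron-permeable channel of the lysosome. EXOC6 was 2.87 ± 1.60 normalized FPKM when lean and 1.31 ± 0.675 when fat, lower in 9 of 10 birds (log2 fold change −1.02, standard error 0.35, limma adjusted p = 0.0854, and 0.0369 with bird as a block). It was called lower for deposited FPKM (adjusted p = 0.0217), where 11.3% of all genes were called. TF was 1.90 ± 1.53 when lean and 0.624 ± 0.283 when fat (adjusted p = 0.216), and MCOLN1 was 0.422 ± 0.611 and 0.159 ± 0.455 (adjusted p = 0.362). TFR2 and CYBRD1 were not analysed here.

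Of 13 genes of export, storage and hepcidin control only HEPH and PCBP2 were fitted, and neither was called. PCBP2, a poly(rC)-binding protein that hands iron to ferritin, was 205 ± 43.4 normalized FPKM when lean and 215 ± 57.1 when fat (log2 fold change 0.05, adjusted p = 0.898). HEPH, the membrane ferroxidase hephaestin, was 0.250 ± 0.248 and 0.267 ± 0.171 (adjusted p = 0.774). FTMT, HAMP and ERFE were not analysed here.

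Among 7 genes of IRP control and other IRE mRNAs, 5 were fitted, with a median log2 fold change of 0.14. Of these 1 was called, SKP1, higher in fat birds, beside 4.76% of all genes called and 1.49% called higher. SKP1 is a core subunit of the ubiquitin ligase that, with FBXL5 as its iron sensor, degrades IRP2 in mammals, and it serves many other substrates. By normalized FPKM it rose in all 10 birds, as 2.15% of all genes did. SKP1 had a mean of 888 ± 165 normalized FPKM when lean and 1396 ± 266.5 when fat (SD, n = 10; log2 fold change 0.65, standard error 0.14, limma adjusted p = 0.0128). With FPKM as deposited it was not called (0.34, adjusted p = 0.102) or with TPM as deposited (0.24, adjusted p = 0.229), nor with quantile normalization (0.41, adjusted p = 0.175). FBXL5 itself was 15.5 ± 4.34 when lean and 14.4 ± 4.65 when fat (log2 fold change −0.12, adjusted p = 0.763). CUL1, the scaffold of the ligase, was 7.14 ± 2.59 and 7.67 ± 2.03 (adjusted p = 0.723).

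Of 15 mitochondrial genes 12 were fitted, 9 higher and 3 lower in fat birds (median log2 fold change 0.14), and none was called, while with bird as a block 2 were called higher, GLRX5 and LYRM4, beside 5.18% of all genes. GLRX5 is the glutaredoxin that passes clusters on within mitochondria and is needed for heme synthesis in zebrafish and humans. It was 304 ± 98.9 normalized FPKM when lean and 428 ± 169 when fat, higher in all 10 birds, as 2.15% of all genes were. Its log2 fold change was 0.46 (limma adjusted p = 0.225, and 0.0191 with bird as a block), with 0.15 for deposited FPKM and 0.06 for TPM. LYRM4, a partner of the cysteine desulfurase, was 30.4 ± 17.4 and 39.0 ± 13.7, higher in 9 birds (log2 fold change 0.49, adjusted p = 0.298, and 0.0233 with bird as a block), with 0.18 for deposited FPKM and 0.09 for TPM. ISCA2, an assembly factor, had a log2 fold change of −0.55 and HSPA9, the mitochondrial HSP70 that serves the pathway, one of 0.39 (adjusted p = 0.175 and 0.181). ISCA2 was called lower for deposited FPKM (−0.85, adjusted p = 0.0282) and for TPM (adjusted p = 0.0163), and HSPA9 was 0.08 for deposited FPKM and −0.01 for TPM. Over all 7800 genes, 882 were called for deposited FPKM, 856 of them lower, and 1243 for TPM, 1225 of them lower. Of 9 cytosolic genes 8 were fitted, 5 higher and 3 lower (median 0.21), with none called and CIAO2B called higher with bird as a block. CIAO2B, a subunit that targets clusters to client proteins, was 42.7 ± 13.5 when lean and 61.3 ± 18.6 when fat, higher in 9 birds (log2 fold change 0.53, adjusted p = 0.114, and 0.0195 with bird as a block), with 0.22 for deposited FPKM and 0.13 for TPM. CIAPIN1, an electron carrier of the pathway named after its values were seen, was −0.21 (adjusted p = 0.448) and was called lower for deposited FPKM (−0.52, adjusted p = 0.0403) and for TPM (adjusted p = 0.0167). The median log2 fold change of all genes was −0.35 for deposited FPKM and −0.43 for TPM. CIAO2A, the paralog of CIAO2B known to act on IRP1 in human cells, was 56.1 ± 26.2 and 70.2 ± 19.8 (adjusted p = 0.291). NDOR1, the reductase that feeds electrons to the pathway, was 1.30 ± 1.26 and 1.57 ± 0.756 (adjusted p = 0.441).

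**Figure D5:**
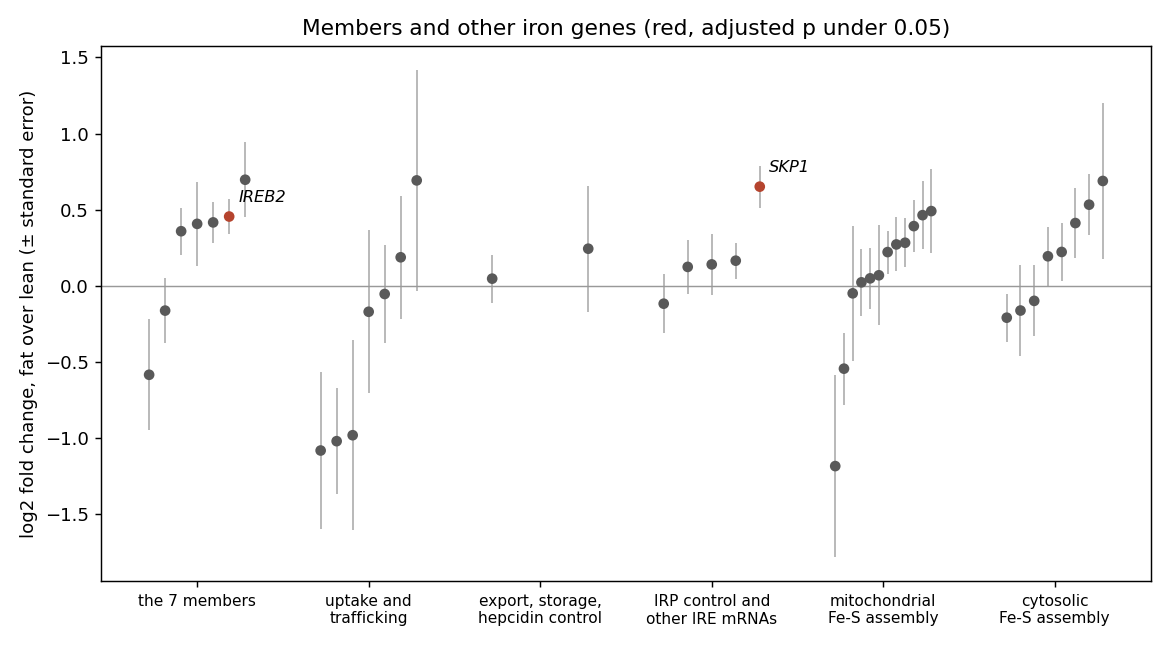
Log2 fold change (fat over lean, y axis, bars are standard errors) of the 7 members and of the fitted genes of 5 other iron lists, with genes at an adjusted p under 0.05 in red. IREB2 at 0.45 and SKP1 at 0.65 are the 2 red points.

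For each fitted gene the 1 or 2 genes given here as most similar in profile were found by Pearson correlation of log2 values over the 20 libraries after the mean of each condition was taken off, among 6874 genes. The values describe libraries that come in pairs from 10 birds. They are the largest of 6874 correlations for each gene, so high values are bound to occur. No reference for unrelated genes was computed. The profile of FTH1 was closest to RPL22L1, a ribosomal protein paralog, and to ISCU, the scaffold on which iron-sulfur clusters are built, with correlations of 0.87 and 0.86. TFRC was closest to FAM32A (0.88) and SURF6 (0.84), SLC40A1 to REV1 and CDYL (both 0.87), and STEAP3 to CKAP4 (0.87). NCOA4 was closest to RDX (0.85). The largest correlations were lower for SLC25A37, with DGCR6L (0.72) and CARM1 (0.70), and for IREB2, with ZMPSTE24 (0.75) and ZDHHC14 (0.72). ZDHHC14 had a mean of only 0.58 normalized FPKM. ISCU, the only iron gene among these neighbours, did not pass the test between conditions (log2 fold change 0.02, adjusted p = 0.969).

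In the coordinates of the zebra finch assembly that the tables use, each of the 8 genes had 1 line. The lines span the whole gene from first to last base, introns included. FTH1 is the shortest, 3432 bases on the minus strand from 8249673 to 8253104, and ACO1 the longest, 40932 bases on the plus strand from 36960490 to 37001421. TFRC runs from 15985791 to 16003952, NCOA4 from 8657603 to 8669659, SLC25A37 from 2266474 to 2281588 and IREB2 from 518501 to 541853, all on the plus strand. SLC40A1 (25267333 to 25292482, plus strand) and STEAP3 (29330288 to 29357396, minus strand) lie on the same sequence.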

How the data were processed

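Blood RNA came from 10 birds, each bled on day 1 and day 5. The authors trimmed reads with ERNE, aligned them by STAR against the zebra finch and ran StringTie for the gene values. The versions of STAR and StringTie are not given in the sources used here. Reads of a warbler can map less well to diverged genes of another species. The deposited values of a gene are its coverage (a signal, mean depth per base), FPKM and TPM, and the authors did not scale them between libraries. Read counts were not used here, and no counting error is given.

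Symbols on several lines were added up. Median-of-ratio factors came from the 4487 symbols above 0 throughout and were 1.14 ± 0.0758 (lean) and 0.925 ± 0.117 (fat, SD). With a floor of 0.1 on the mean deposited FPKM, log2(FPKM + 0.1) was compared in limma 3.58.1 under R 4.3.3 (two-sided, with a trend; adjusted by Benjamini-Hochberg, threshold 0.05). No bird term was used, as none is named in the study's methods. The procedure was tested on simulated data. Python 3.11.15 served for the rest, with numpy 2.4.6 for the sign-flip test (pandas 2.3.3) and figures from matplotlib 3.10.9. The adjustment over the ratios and their permutation test without regard to bird used scipy 1.17.1.

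Bird as a block was the paired alternative. Both samples of a replicate number came from the same bird, and the pair correlated with r of 0.152 to 0.382 once each condition's mean was taken off, with 20 of 20 libraries closest to their own bird. For birds 8 and 10 the labels and the published sample list give different codes, and the labels were followed.

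The text names all members, each called gene and the 3 genes of smallest p in every other iron list, the 2 nearest profiles and HBAA. A few that it takes are not reported here. LYRM4, FBXL5 and CIAPIN1 were added after their values were seen. Members and lists were chosen with earlier results of these data known. Alternatives were pseudocounts of 0.01 and 1, no filter or a mean FPKM of 1, deposited FPKM, deposited TPM, quantile normalization, the block (also in 8 birds with matching codes), depth or the uniquely mapped share as a covariate, sample weights and each bird left out. Chosen after the data were seen were leaving out the lean library of bird 8, erythroid scaling and the block on deposited FPKM. No sequence table was used here, so no sequence is printed.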

Additional observations from a re-analysis of the deposited data

Results flagged for a closer look

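Of 20 groups of 10 values examined (7 genes and 3 ratios, lean and fat), 2 held a library far from the other 9, where chance gives about 1 in 20. SLC40A1 was 4.32 normalized FPKM in the lean library of bird 8, with the next lowest lean library at 20.9, and this gap took up 0.73 of the range of log2 values. NCOA4 was 91.9 in the fat library of bird 3, with the next lowest fat library at 134, a gap of 0.52 of the range. The lean library of bird 3 had 96.4 normalized FPKM of NCOA4, so both libraries of this bird were low.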

How the results depend on the processing

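The IREB2 call was lost with FPKM as deposited (log2 fold change 0.15, with or without bird as a block), TPM as deposited (0.0493), quantile normalization (0.33), scaling to erythroid markers (0.26) and the uniquely mapped share as a covariate in 18 libraries (0.59, adjusted p = 0.428), so that 0 of the 7 genes were called in each of these settings. With each bird left out of the fit without a bird term IREB2 was 0.42 to 0.49, with limma adjusted p from 0.0245 to 0.0775. In these fits 0 to 1 genes of the 7 were called. Without the lean library of bird 8 alone IREB2 was 0.51. With bird as a block TFRC (0.70) and SLC25A37 (0.42) were called as well, 3 in all, and with depth as a covariate and the block 2 were called, SLC25A37 with 0.49. In the 8 birds whose codes match, the block called only IREB2 among the 7 (0.51), and 301 of all genes. The block changed no other call among the 7 or the ratios. NCOA4 turned to −0.0478 with TPM as deposited. With the covariate of unique mapping FTH1 turned to 0.21 and SLC40A1 to −0.00488. With a mean FPKM of at least 1, 1 of the genes left was lower in fat birds.

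The count of all genes called, 371, was 120 without the filter, 882 for deposited FPKM, 1243 for deposited TPM, 177 with quantile normalization, 1034 with bird as a block, 160 with depth as a covariate, 615 with depth and the block, 186 without the lean library of bird 8 and 1519 with FPKM as deposited and the block. With the same covariate of unique mapping it was 0 by limma, with 506 genes at an unadjusted p under 0.05. In that fit the standard error was 0.16 for IREB2 and 0.35 for FTH1, beside 0.12 and 0.22 in the main fit. For SLC40A1 it was 0.27 beside 0.28. How far the mapped share follows the condition was not tested, so this fit may not tell the 2 apart. The count of genes called ran from 73 (without bird 10) to 400 (without bird 9) with a bird left out, and was under 371 by more than 1.5 times without bird 1, 2, 3, 5, 6, 7, 8 or 10. The cause of these differences was not tested.

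With each bird left out the FTH1 to TFRC difference ran from −0.99 to −0.70 and the FTH1 to NCOA4 difference from −0.62 (exact p = 0.0469, without bird 9) to −0.31. With a pseudocount of 1 the IREB2 to ACO1 difference was 0.41 (exact sign-flip p = 0.0156). That constant is above every ACO1 value, so this ratio mostly follows normalized IREB2, which alone changed by 0.45 with it. The 4 ratios stayed on their side of the threshold without regard to bird. Depth limits ACO1 and STEAP3 most, with coverage of at most 0.309 and 4.61 reads per base.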
